A study of Mus musculus with 10 samples.

Results

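The comparison was between the cortex of DGCR8 knock-out mouse embryos (DGCR8 KO) and that of wild-type embryos of the same line (DGCR8 WT) at stage E13.5, with small RNA sequenced from 2 mice per genotype. These 4 libraries, chosen by genotype label, are part of a series of 10 libraries. The series also holds 2 libraries of DGCR8 heterozygotes (DGCR8 HET) and 2 each of Dicer knock-out (Dicer KO) and Dicer wild-type (Dicer WT) cortex, and the series text describes the knock-outs of both genes as conditional. The age and tissue were the same in all groups, and no treatment is named. The sources used here do not say what drives the deletion, how many cells of the cortex lost the gene, or which strain was used. Small RNA reads do not measure the Dgcr8 transcript, so the deletion itself could not be checked. The table's columns for the DGCR8 line carry a number that differs from the one in the sample descriptions; they were matched on line and index number, and every value rests on that match.

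DGCR8 is the RNA-binding partner of the nuclease Drosha. Together they form the Microprocessor, which cuts a hairpin precursor out of a primary transcript in the nucleus, and Dicer then cuts the loop off in the cytoplasm to leave a duplex with a 5p and a 3p arm. Mirtrons, which are hairpins made by splicing, and capped hairpins made directly by RNA polymerase II skip the nuclear cut and still need Dicer. In embryonic cortex, miR-9 and miR-92b are known from neural progenitors, miR-124 and miR-128 from neurons, and the let-7 family from cells that mature. Mature miRNAs can be long-lived, and those made before a deletion stay until they decay or are diluted by division.

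The mature sequences below are those on which the results turn, from RefSeq with build GRCm38.p6, written 5′ to 3′ with the seed (bases 2 to 8), the part that pairs with targets, in capitals. The first set fell most among miRNAs of the miR-708 and miR-23a loci, with miR-28a-5p beside miR-708-5p for its shared seed and miR-27b-3p beside miR-27a-3p for the same reason.
miR-708-5p: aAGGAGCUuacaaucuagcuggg
miR-28a-5p: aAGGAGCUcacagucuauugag
miR-708-3p: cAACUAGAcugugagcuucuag
miR-23a-3p: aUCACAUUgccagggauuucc
miR-27a-3p: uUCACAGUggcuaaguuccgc
miR-27b-3p: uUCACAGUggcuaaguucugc
miR-24-2-5p: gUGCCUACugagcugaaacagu

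The next set holds the abundant families that took smaller shares of the knock-out libraries, with the 3 miRNAs of the miR-92 seed first.
miR-92b-3p: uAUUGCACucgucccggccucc
miR-92a-3p: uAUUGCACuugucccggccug
miR-25-3p: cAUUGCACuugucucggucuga
miR-9-5p: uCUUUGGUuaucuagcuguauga
let-7f-5p: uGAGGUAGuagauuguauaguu

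The set that was higher in the knock-out holds members of the miR-344 family and of the imprinted 12qF1 cluster, of which miR-344d-3p and miR-410-3p share a seed.
miR-344-3p: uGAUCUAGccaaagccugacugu
miR-344f-3p: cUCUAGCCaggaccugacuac
miR-344d-3p: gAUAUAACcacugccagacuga
miR-410-3p: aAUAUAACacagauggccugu
miR-376b-3p: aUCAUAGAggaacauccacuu

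The last set shows a capped hairpin and a pair of mirtron-numbered miRNAs, both arms of miR-455, and miR-193a-3p and miR-193b-3p, which share a seed and moved in opposite directions.
miR-484: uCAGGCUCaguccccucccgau
miR-6944-3p: uAACUCUUcccuugugcccucag
miR-6958-3p: uCAGCUGCcucuugccaucacag
miR-455-3p: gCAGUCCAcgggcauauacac
miR-455-5p: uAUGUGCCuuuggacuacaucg
miR-193a-3p: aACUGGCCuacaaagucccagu
miR-193b-3p: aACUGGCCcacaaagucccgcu

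The libraries held 2011508 and 1535333 miRNA reads in DGCR8 KO, against 2608742 and 2420701 in DGCR8 WT. The deposited read counts were summed over 3′ suffixes to 1432 mature names, of which 557 had enough reads to test. Levels are given in CPM, each library's count scaled to a common total of miRNA reads, after TMM scaling, in the order of replicates 1 and 2. Changes are log2 fold changes, DGCR8 KO over DGCR8 WT, with the SE of the fit. They were tested with edgeR's quasi-likelihood test over all 10 libraries and called at a Benjamini-Hochberg adjusted p below 0.05. Every adjusted p below comes from this fit unless a separate fit is named. With 2 libraries per genotype the smallest exact two-sided permutation p is 0.333, and shares of reads are therefore given untested. The median absolute log2 difference between libraries of a genotype, over 397 miRNAs of at least 10 CPM, was 0.231 in DGCR8 KO and 0.144 in DGCR8 WT. The series text gives 2 mice per genotype, so the p-values rest on the spread between mice of a group. That spread was estimated over all 10 libraries of both lines, not from the DGCR8 KO and DGCR8 WT mice alone. In bulk tissue, fewer cells of a type and less RNA per cell cannot be told apart.

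The knock-out cortex had less of its most abundant miRNAs and more of a large imprinted cluster. Of 557 miRNAs, 115 were called (20.6%), 49 of them higher (8.8%) and 66 lower (11.8%) in DGCR8 KO. More than 2-fold changes made up 27 of the higher and 24 of the lower calls, and the median log2 fold change was 1.04 among the higher and −0.86 among the lower calls. The 66 lower miRNAs together took 44.6% and 45.5% of miRNA reads in DGCR8 KO, against 55.0% and 56.5% in DGCR8 WT. The 49 higher ones took 8.49% and 7.42% in DGCR8 KO, against 3.92% and 3.33% in DGCR8 WT. The KO and WT libraries stood apart without overlap for each of the 115, and for 396 of all 557.

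The split into higher and lower rests on the scaling, because each value is set against the rest of its own library. The TMM factors were 1.29 and 1.21 in DGCR8 KO, against 0.965 and 0.916 in DGCR8 WT. On library totals, with the median over all miRNAs shifted by 0.41 (log2), 105 were called higher and 14 lower. Scaled to a list of miRNAs made without DGCR8, with a shift of −0.23, 14 were called higher and 123 lower. DESeq2 with its own size factors called 66 higher and 60 lower. Under all 4 scalings, 11 miRNAs were called higher and 14 lower. The count also needed both mice of each genotype. It was 5 without DGCR8 KO replicate 1, 9 without DGCR8 KO replicate 2, 10 without DGCR8 WT replicate 1 and 5 without DGCR8 WT replicate 2, with a lone library taken to vary like the other groups. All 115 calls kept their direction in each of these 4 fits, and between 99 and 111 of them had an unadjusted p below 0.05. miR-708-5p, miR-23a-3p and miR-92b-3p alone kept their calls under all 12 alternatives run.

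**Figure D1:**
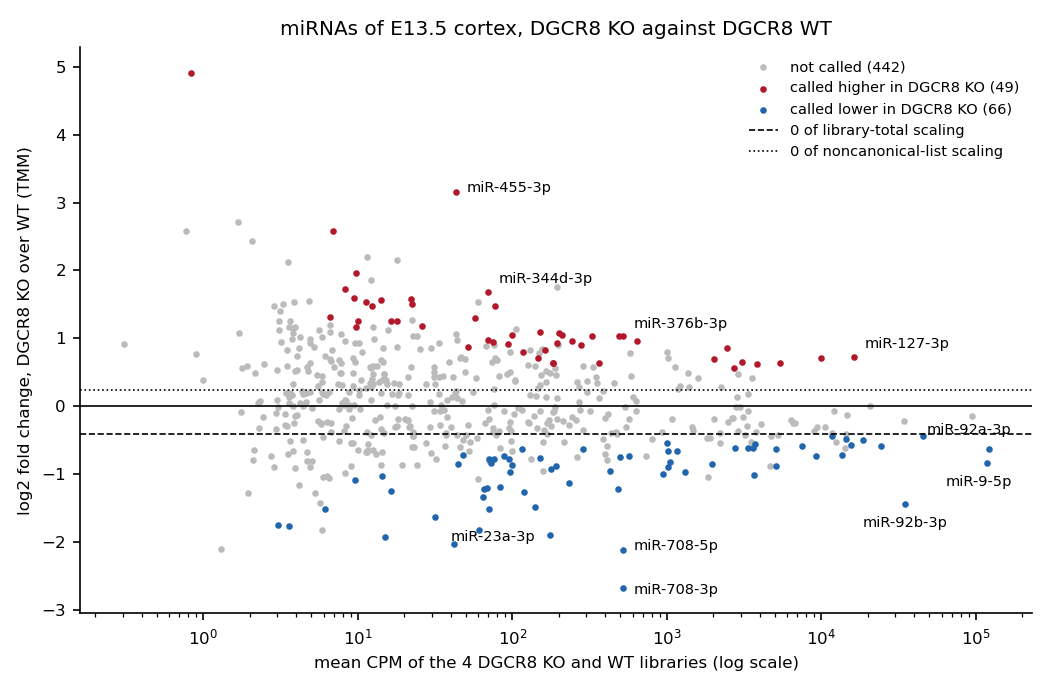
Each point is one of 557 miRNAs, with its mean CPM over the 4 libraries on a log x axis and its TMM log2 fold change, DGCR8 KO over DGCR8 WT, on the y axis; red and blue mark the 49 higher and 66 lower calls. The dashed and dotted lines show where 0 would lie on library totals and after scaling to the noncanonical list. Most of the abundant miRNAs on the right lie below 0.

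The largest fall was that of miR-708, a miRNA in an intron of the teneurin gene Tenm4 (GRCm38.p6, plus strand, chr7:96249450-96249517). miR-708-3p was at 140.5 and 140.3 CPM in DGCR8 KO, against 800.4 and 996 CPM in DGCR8 WT (log2 fold change −2.68 ± 0.34, adjusted p = 0.00296). miR-708-5p was at 191 and 201 CPM in DGCR8 KO, against 786 and 917 CPM in DGCR8 WT (−2.12 ± 0.20, adjusted p = 0.000532), a level 4.34-fold lower. Both arms thus lay far below the wild types in both knock-out mice, whose own values nearly coincided. The HET libraries held 632 and 691 CPM of miR-708-5p, between the knock-outs and the wild types. miR-28a-5p, from an intron of Lpp and singled out after its values were seen because it has the miR-708-5p seed, also fell. It was at 155 and 113 CPM in DGCR8 KO, against 240.0 and 257 CPM in DGCR8 WT (−0.89 ± 0.26, adjusted p = 0.0424). Its call, unlike that of miR-708-5p, was lost on library totals and in reads with no added base.

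miR-23a, miR-27a and miR-24-2, which are processed from one short transcript and are known from muscle, vessels and glia, fell as a block. Their hairpins lie on the plus strand at chr8:84208518-84208921 (GRCm38.p6). miR-23a-3p was at 77.0 and 71.5 CPM in DGCR8 KO, against 264 and 291 CPM in DGCR8 WT (−1.90 ± 0.19, adjusted p = 0.000692). miR-27a-3p was at 30.4 and 42.5 CPM in DGCR8 KO, against 96.2 and 111 CPM in DGCR8 WT (−1.52 ± 0.24, adjusted p = 0.00912). miR-24-2-5p was at 25.8 and 28.0 CPM in DGCR8 KO, against 86.2 and 105 CPM in DGCR8 WT (−1.83 ± 0.24, adjusted p = 0.00304). All 4 tested arms that come only from this locus, the scarce miR-27a-5p included, were called lower, with a median of −1.79. Over all tested miRNAs 11.8% were called lower. miR-24-3p, which a copy on chromosome 13 also makes, fell as well (−1.13 ± 0.20, adjusted p = 0.0106).

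The sister cluster on chromosome 13 makes miR-23b and miR-27b, which share the seeds of miR-23a and miR-27a. miR-27b-3p, far more abundant than miR-27a-3p, was at 3615 and 3786 CPM in DGCR8 KO, against 4307 and 4579 CPM in DGCR8 WT. It was not called (−0.26 ± 0.13, adjusted p = 0.168), and miR-23b-3p was not called either (−0.18 ± 0.15, adjusted p = 0.405); both values turned positive on library totals. Of the 8 tested members of both clusters, 5 fell and 0 rose, with a median of −1.32. Over all tested miRNAs 11.8% were called lower and the median was 0.02.

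Other large falls came from single loci. miR-3093-5p lies in an intron of the noncoding gene Gm3764, at chr3:88215171-88215257, next to Mir9-1 at chr3:88215598-88215686 (GRCm38.p6, both on the plus strand). It was at 16.9 and 15.6 CPM in DGCR8 KO, against 67.6 and 66.8 CPM in DGCR8 WT (−2.04 ± 0.34, adjusted p = 0.00912), and its other arm fell too (−1.52 ± 0.46, adjusted p = 0.0465). That arm, miR-3093-3p, had 8 and 6 reads in DGCR8 KO, against 20 and 23 in DGCR8 WT. The call of miR-3093-3p was lost on library totals, with the replicate block and in DESeq2. miR-1251-5p, from an intron of the neural noncoding gene Rmst, was at 92.0 and 54.8 CPM in DGCR8 KO, against 198 and 217 CPM in DGCR8 WT (−1.49 ± 0.25, adjusted p = 0.00912). miR-135a-2-3p, from another intron of Rmst and named after its values were seen, fell by a like amount (−1.22 ± 0.27, adjusted p = 0.0198). Its call was lost on library totals, while that of miR-1251-5p was kept there. miR-135a-5p, which has copies on other chromosomes, was at 1170 and 829 CPM in DGCR8 KO, against 1137 and 1156 CPM in DGCR8 WT, and was not called (−0.20 ± 0.20, adjusted p = 0.469). Its value was positive on library totals. Also among the 12 largest falls were miR-92b-3p, whose values follow, miR-3081-3p, from an intron of the hedgehog co-receptor gene Boc (−1.94), miR-193a-3p (−1.63), miR-98-3p (−1.34) and miR-3085-3p (−1.27).

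**Figure D2:**
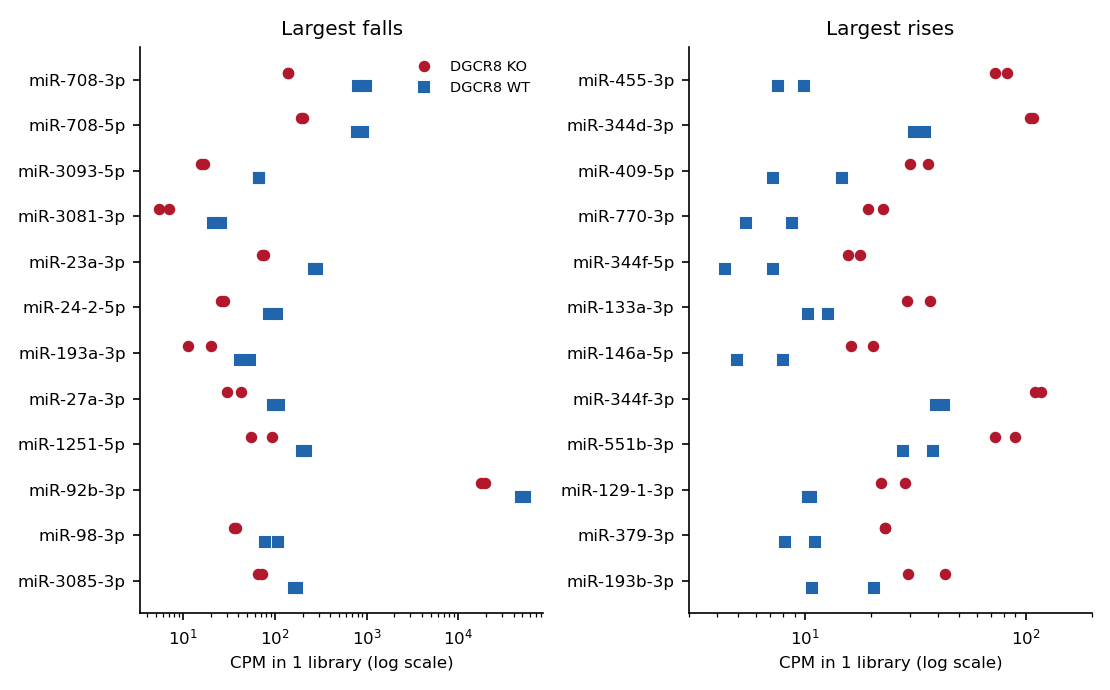
CPM in each library on a log x axis for the 12 largest falls (left) and the 12 largest rises (right) among called miRNAs of at least 10 mean CPM; circles are the 2 DGCR8 KO and squares the 2 DGCR8 WT libraries. Lack of overlap was part of the rule for naming these miRNAs. The closest libraries are those of miR-193b-3p, at 29.3 CPM in DGCR8 KO against 20.7 CPM in DGCR8 WT.

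Of the 10 most abundant miRNAs of the wild-type cortex, 7 fell and 0 rose, against 11.8% lower over all tested miRNAs. On library totals 1 of the 7, miR-92b-3p, was called lower. miR-92b-3p, made by a single locus on chromosome 3 and known from cortical progenitors, was at 19741 and 17588 CPM in DGCR8 KO, against 48446 and 52844 CPM in DGCR8 WT (−1.44 ± 0.12, adjusted p = 0.000287). miR-92a-3p, of the proliferation-linked miR-17-92 cluster and another copy on the X chromosome, was at 89047 and 101442 CPM in DGCR8 KO, against 145194 and 148891 CPM in DGCR8 WT (−0.63 ± 0.10, adjusted p = 0.00912). miR-25-3p, of the paralog cluster in Mcm7, was at 9542 and 10134 CPM in DGCR8 KO, against 13086 and 13760 CPM in DGCR8 WT (−0.45 ± 0.10, adjusted p = 0.0199). The 4 tested miRNAs with this seed in the RefSeq table together took 15.3% and 15.7% of reads in DGCR8 KO, against 19.9% and 19.7% in DGCR8 WT. Of the 3 named, miR-92b-3p had the largest fall. The call of miR-25-3p was lost on library totals, with no filter on low counts and in reads with no added base. That of miR-92a-3p was lost on library totals and in reads with no added base.

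miR-9-5p, a regulator of neural progenitors made from 3 loci, was at 80873 and 88918 CPM in DGCR8 KO, against 140445 and 163842 CPM in DGCR8 WT (−0.84 ± 0.17, adjusted p = 0.0142). miR-9-3p fell alongside it (−1.02 ± 0.24, adjusted p = 0.0254). On library totals neither of them was called. miR-26a-5p (−0.45 ± 0.12, adjusted p = 0.0374), miR-30a-5p (−0.59 ± 0.12, adjusted p = 0.0153), miR-30c-5p (−0.50 ± 0.11, adjusted p = 0.0163) and miR-30e-5p (−0.57 ± 0.13, adjusted p = 0.0243) made up the other falls of the 10. The call of miR-26a-5p was lost on library totals, with no filter on low counts, in reads with no added base and in DESeq2. That of miR-30c-5p was lost in the same settings except DESeq2. In reads with no added base, miR-30a-5p lay at 0.07 and miR-30e-5p at 0.07. miR-181a-5p, the third most abundant, was at 86739 and 92776 CPM in DGCR8 KO, against 98192 and 101306 CPM in DGCR8 WT, and was not called (−0.15 ± 0.13, adjusted p = 0.394). miR-16-5p (−0.22 ± 0.19, adjusted p = 0.421) and miR-125b-5p, at 19655 and 21520 CPM in DGCR8 KO against 20704 and 20490 CPM in DGCR8 WT, were not called either, and all 3 were positive on library totals.

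Over all tested miRNAs 11.8% were called lower and the median was 0.02. By list, 8 of 18 tested let-7 miRNAs fell and 0 rose, with a median of −0.77. Among them let-7f-5p was at 9710 and 10859 CPM in DGCR8 KO, against 16167 and 17910 CPM in DGCR8 WT (−0.73 ± 0.18, adjusted p = 0.0285). let-7d-3p was at 839 and 924 CPM in DGCR8 KO, against 1703 and 1754 CPM in DGCR8 WT (−0.97 ± 0.19, adjusted p = 0.0138), while let-7c-5p did not pass the threshold (−0.42 ± 0.18, adjusted p = 0.133). Both arms of miR-98, a let-7 relative in an intron of Huwe1, fell, miR-98-5p to 573 and 689 CPM in DGCR8 KO against 1217 and 1302 CPM in DGCR8 WT (−0.997 ± 0.21, adjusted p = 0.0153). All 18 values lay below 0, against 273 of 557 over all tested miRNAs. On library totals 1 of the 18 was called lower, let-7d-3p, and 15 lay below 0.

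In the miR-17-92 and paralog clusters 6 of 23 fell and 0 rose (median −0.43), against 0 calls on library totals, where 13 lay below 0. In the broadly expressed miR-30 family 5 of 11 fell and 0 rose (median −0.49), again with 0 calls on library totals. Against 11.8% called lower over all miRNAs, other families had 1 or 2 falls each and 0 rises. These were miR-26 (1 of 5, median −0.45), miR-148 and miR-152 (2 of 6, median −0.50), miR-130 and miR-301 (2 of 8, median −0.31), miR-181 (2 of 9, median −0.40) and miR-99, miR-100 and miR-125 (1 of 11, median −0.31), where the last 3 medians turned positive on library totals. miR-301a-3p was at 3424 and 3704 CPM in DGCR8 KO, against 6186 and 6983 CPM in DGCR8 WT (−0.89 ± 0.22, adjusted p = 0.0285). miR-148a-3p fell as well (−0.62 ± 0.15, adjusted p = 0.0257). miR-29c-3p, a member of a family that increases as the brain matures, was at 40.4 and 41.9 CPM in DGCR8 KO, against 96.2 and 94.3 CPM in DGCR8 WT (−1.21 ± 0.23, adjusted p = 0.0134). Its relative miR-29a-3p was not called (0.45 ± 0.29, adjusted p = 0.287). In the miR-15 and miR-16 list 0 of 9 were called by edgeR or DESeq2 and 3 had an unadjusted p below 0.05 (median −0.38, positive on library totals). On the X chromosome, the 8 tested arms of the miR-188 to miR-532 cluster that RefSeq entries place (minus strand, chrX:7237683-7248497, GRCm38.p6) lay between −1.04 and −0.67, and 3 of them were called lower. miR-532-5p, which has no entry in that table and was named after its values were seen, was at 1746 and 1434 CPM in DGCR8 KO, against 2118 and 2297 CPM in DGCR8 WT, and was not called (−0.47 ± 0.16, adjusted p = 0.0696).

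**Figure D3:**
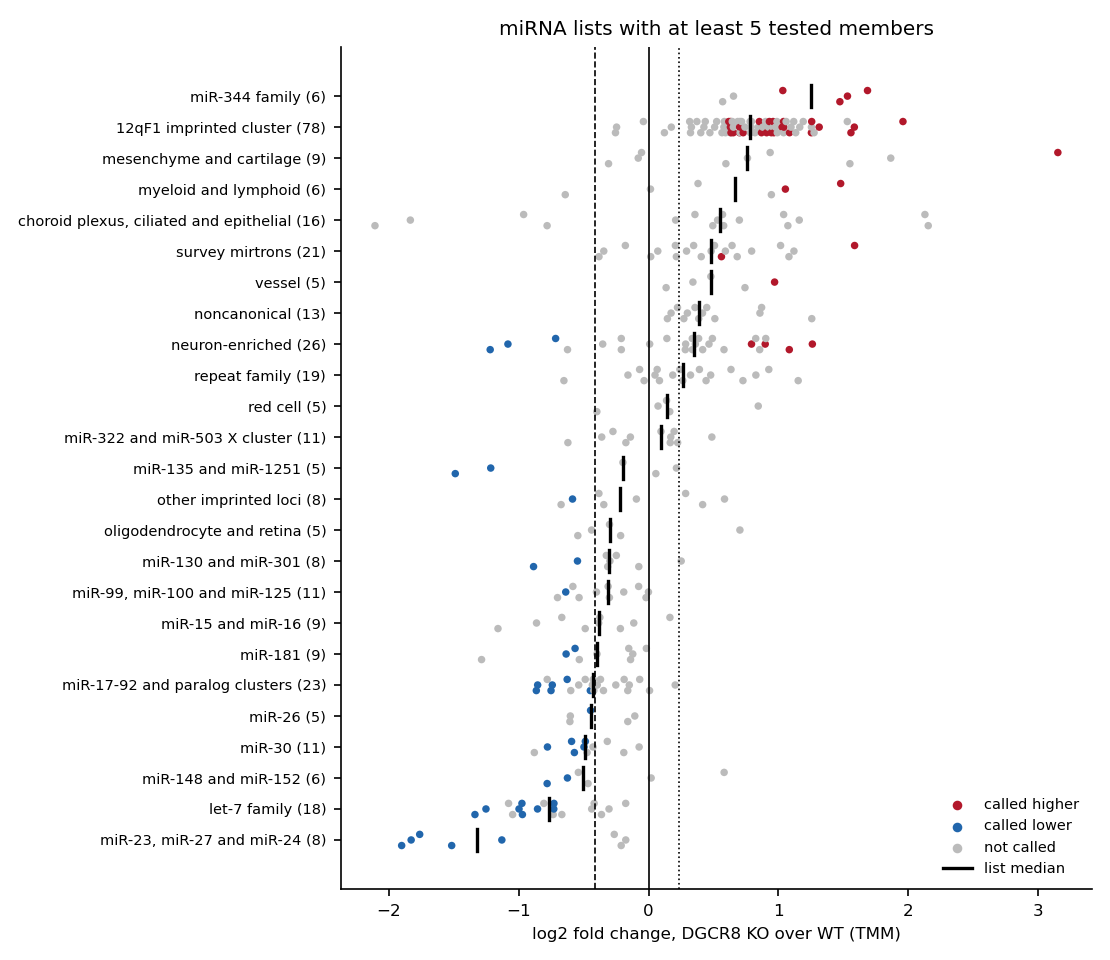
Each point is a tested miRNA, placed by its TMM log2 fold change, DGCR8 KO over DGCR8 WT, on the x axis, in rows of lists with at least 5 tested members (number in brackets); black bars are list medians. The dashed and dotted lines mark where 0 would lie on library totals and after scaling to the noncanonical list. The miR-344 family (median 1.25) and the 12qF1 cluster (0.78) stand at the high end and miR-23, miR-27 and miR-24 (−1.32) and let-7 (−0.77) at the low end.

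The 12qF1 imprinted cluster, a long array of miRNAs expressed from the maternal chromosome and known from brain and placenta, was higher in the knock-out. Of 78 tested members 27 rose and 0 fell, against 8.8% called higher over all tested miRNAs. The median was 0.78 and 75 lay above 0, against 0.02 and 284 of 557 over all tested miRNAs. The cluster took 8.76% and 7.44% of reads in DGCR8 KO, against 4.05% and 3.39% in DGCR8 WT. The number of rises was 53 on library totals, 40 in DESeq2 and 6 after scaling to the noncanonical list, and 5 were called under every scaling. In Dicer KO over Dicer WT the median was 0.79. A test of the difference between the 2 lines, described below, called 0 of the 78 members of the cluster. miR-127-3p, its most abundant tested member, was at 19670 and 21108 CPM in DGCR8 KO, against 13204 and 11403 CPM in DGCR8 WT (0.73 ± 0.15, adjusted p = 0.0153). miR-434-3p was at 12889 and 11688 CPM in DGCR8 KO, against 7915 and 7144 CPM in DGCR8 WT (0.71 ± 0.19, adjusted p = 0.0358).

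miR-376b-3p was at 769 and 629 CPM in DGCR8 KO, against 343 and 342 CPM in DGCR8 WT (1.03 ± 0.18, adjusted p = 0.0106). The largest rises of the cluster among the named miRNAs were those of miRNAs at low levels. miR-409-5p was at 36.2 and 30.1 CPM in DGCR8 KO, against 14.7 and 7.22 CPM in DGCR8 WT (1.58 ± 0.33, adjusted p = 0.0153). miR-770-3p, from an exon of Meg3, was at 22.7 and 19.4 CPM in DGCR8 KO, against 8.74 and 5.41 CPM in DGCR8 WT (1.56 ± 0.32, adjusted p = 0.0153). miR-379-3p was at 23.1 CPM in both DGCR8 KO libraries, against 11.1 and 8.12 CPM in DGCR8 WT (1.25 ± 0.37, adjusted p = 0.0444), and its 5p arm rose as well (0.91 ± 0.20, adjusted p = 0.0199). The opposite arms of miR-409 (0.71 ± 0.29, adjusted p = 0.11) and miR-770 (0.96 ± 0.47, adjusted p = 0.171) were not called.

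Rises came from both ends of the cluster. In the group nearer Meg3 (plus strand, chr12:109563692-109595388, GRCm38.p6), 7 of 20 tested arms rose, with a median of 0.76 and a range of 0.12 to 1.96. In the group that starts with miR-379 (plus strand, chr12:109709060-109747960), 16 of 50 rose, with a median of 0.76 and a range of −0.25 to 1.58. The HET libraries held 446 and 350.1 CPM of miR-376b-3p and 13248 and 14382 CPM of miR-127-3p, closer to the wild types than to the knock-outs.

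**Figure D4:**
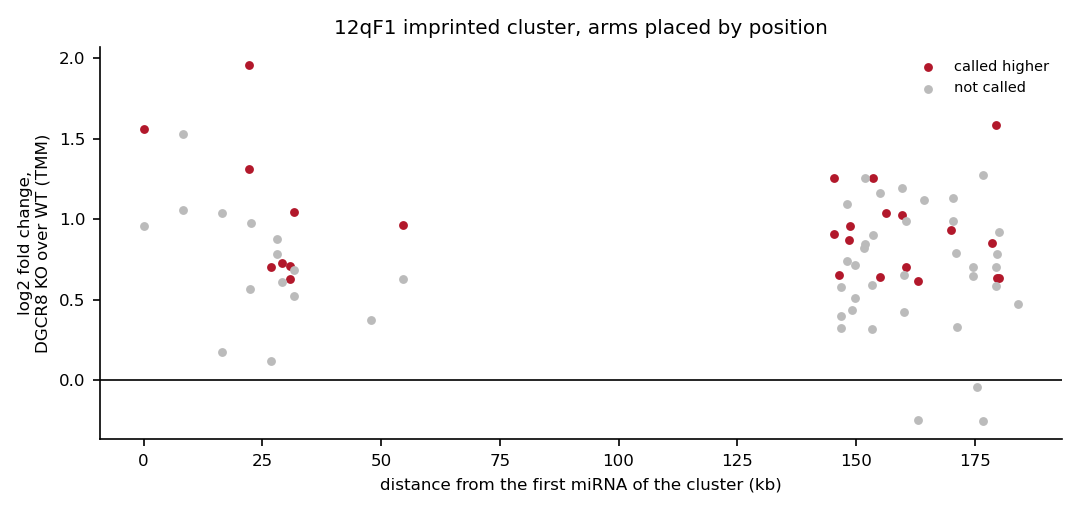
The TMM log2 fold change, DGCR8 KO over DGCR8 WT, of 75 arms of the 12qF1 cluster that could be placed, against distance in kb from its first miRNA; red marks the 25 called higher. The values have the same median, 0.76, in the groups at the left and right.

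Members of the miR-344 family, brain miRNAs of chromosome 7, showed some of the largest rises. Of 6 tested members 4 rose and 0 fell, with a median of 1.25. Over all tested miRNAs 8.8% were called higher and the median was 0.02. The number of rises was 5 on library totals, 3 in DESeq2 and 2 after scaling to the noncanonical list, and 2 members were called under every scaling. miR-344-3p was at 659.7 and 658 CPM in DGCR8 KO, against 330.2 and 313 CPM in DGCR8 WT (1.03 ± 0.16, adjusted p = 0.00912). miR-344d-3p was at 108 and 105 CPM in DGCR8 KO, against 35 and 31.1 CPM in DGCR8 WT (1.69 ± 0.50, adjusted p = 0.0443). miR-344f-3p was at 117 and 110.2 CPM in DGCR8 KO, against 42.5 and 39.2 CPM in DGCR8 WT (1.47 ± 0.28, adjusted p = 0.0126), and miR-344f-5p rose too (1.53 ± 0.46, adjusted p = 0.0444). The libraries of a genotype were close together for the 3p arms. miR-410-3p of the 12qF1 cluster, which has the seed of miR-344d-3p and was singled out for it after its values were seen, was at 7399 and 5699 CPM in DGCR8 KO, against 4471 and 3978 CPM in DGCR8 WT (0.63 ± 0.19, adjusted p = 0.0482). miR-344 copies are near-identical at some loci, so reads may be split between them.

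Among 26 neuron-enriched miRNAs there were 4 rises and 3 falls (median 0.35), against 8.8% called higher and 11.8% called lower over all tested miRNAs. miR-129-1-3p, of neurons, was at 28.5 and 22.0 CPM in DGCR8 KO, against 10.7 and 10.4 CPM in DGCR8 WT (1.26 ± 0.30, adjusted p = 0.0255). miR-218-5p, known from motor and other neurons, was at 353 and 227 CPM in DGCR8 KO, against 611 and 741 CPM in DGCR8 WT (−1.22 ± 0.25, adjusted p = 0.0153). Not called were miR-124-3p, at 2563 and 2375 CPM in DGCR8 KO against 2111 and 1947 CPM in DGCR8 WT, miR-138-5p (0.42 ± 0.19, adjusted p = 0.144) and miR-128-3p, at 10864 and 11533 CPM in DGCR8 KO against 16315 and 18196 CPM in DGCR8 WT (−0.62 ± 0.33, adjusted p = 0.216). On library totals 10 of the 26 were called higher and 0 lower; after scaling to the noncanonical list the counts were 1 and 3. The levels of miR-9-5p, miR-92b-3p, miR-128-3p and miR-124-3p in all 4 libraries are those of a tissue with neural progenitors and neurons, as labelled.

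miRNAs described as made without DGCR8 held a larger share of the knock-out libraries. The 13 tested members of this noncanonical list, made up of capped hairpins, early described mirtrons and tRNA- or snoRNA-derived miRNAs, took 0.769% and 0.797% of reads in DGCR8 KO, against 0.499% and 0.497% in DGCR8 WT. All 13 lay above 0, with a median of 0.39, against 284 of 557 and 0.02 over all tested miRNAs. None was called by edgeR with TMM, 1 had an unadjusted p below 0.05, and 2 were called higher in DESeq2 and 6 on library totals. The capped hairpin miR-484 was at 3427 and 3726 CPM in DGCR8 KO, against 3110 and 3233 CPM in DGCR8 WT (0.17 ± 0.12, adjusted p = 0.316). After scaling to this list the value was −0.07, but miR-484 held 3427 of the list's 5948 CPM in DGCR8 KO replicate 1. A value near 0 was thus largely set by that scaling, and it is no test of miR-484. The tRNA-derived miR-1983 was at 1242 and 1436 CPM in DGCR8 KO, against 1041 and 1136 CPM in DGCR8 WT (0.30 ± 0.15, adjusted p = 0.198). Of 21 miRNAs with miRBase numbers from a survey of mirtrons, 2 rose and 0 fell (median 0.48), against 8.8% called higher over all tested miRNAs. miR-6944-3p, from an intron of the drebrin gene Dbn1, was at 3104 and 3415 CPM in DGCR8 KO, against 2191 and 2226 CPM in DGCR8 WT (0.56 ± 0.15, adjusted p = 0.0311), a call that was lost after scaling to the noncanonical list. miR-6958-3p was at 12.7 and 15.6 CPM in DGCR8 KO, against 4.77 and 4.51 CPM in DGCR8 WT (1.59 ± 0.29, adjusted p = 0.0114). miR-7068-3p was not called (0.51 ± 0.25, adjusted p = 0.168).

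The most like comparison is Dicer KO against Dicer WT, which has its own wild-type mice, and the difference between the changes in the 2 lines was tested in the same fit. The difference was called for 12 miRNAs (2.15%), 5 with a more positive and 7 with a more negative change in the DGCR8 line. Of the 13 noncanonical miRNAs 3 were among the 5, as were 2 of the 21 mirtron-numbered ones. miR-484 was at 1834 and 1786 CPM in Dicer KO, against 3357 and 3404 CPM in Dicer WT, so its change in the Dicer line was −0.90 ± 0.12 and the difference 1.07 ± 0.17 (adjusted p = 0.0122). miR-1983 (difference 1.82 ± 0.22, adjusted p = 0.00422), miR-6944-3p (1.94 ± 0.21, adjusted p = 0.00293) and miR-6958-3p (2.95 ± 0.48, adjusted p = 0.0124) likewise were lower in Dicer KO and not in DGCR8 KO. The value of miR-6958-3p rests on few reads, 4 and 2 in Dicer KO against 31 and 32 in Dicer WT.

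The chromosome 8 block differed in the other direction. miR-23a-3p was at 386 and 370.0 CPM in Dicer KO, against 397 and 429 CPM in Dicer WT, and its change in the DGCR8 line was more negative by 1.77 ± 0.27 on the log2 scale (difference −1.77, adjusted p = 0.0122). The difference was −1.70 ± 0.33 for miR-24-2-5p (adjusted p = 0.0314), and for miR-27a-3p it was −1.66 ± 0.33 (adjusted p = 0.0337). So did miR-135a-2-3p (−2.42 ± 0.37, adjusted p = 0.0122), which was at 251 and 363 CPM in Dicer KO, against 122 and 144 CPM in Dicer WT. For miR-708-5p (difference 0.11 ± 0.27, adjusted p = 0.838), miR-92b-3p (0.27 ± 0.16, adjusted p = 0.403), miR-9-5p (0.02 ± 0.24, adjusted p = 0.961) and miR-127-3p (−0.16 ± 0.21, adjusted p = 0.707) no difference between the lines was called. The 12 calls were 21 on library totals, 38 in DESeq2, 0 without DGCR8 WT replicate 1, 2 without DGCR8 WT replicate 2, 7 without DGCR8 KO replicate 1, 4 without DGCR8 KO replicate 2, 2 without Dicer WT replicate 1 and 43 when Dicer KO replicate 1 was left out.

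**Figure D5:**
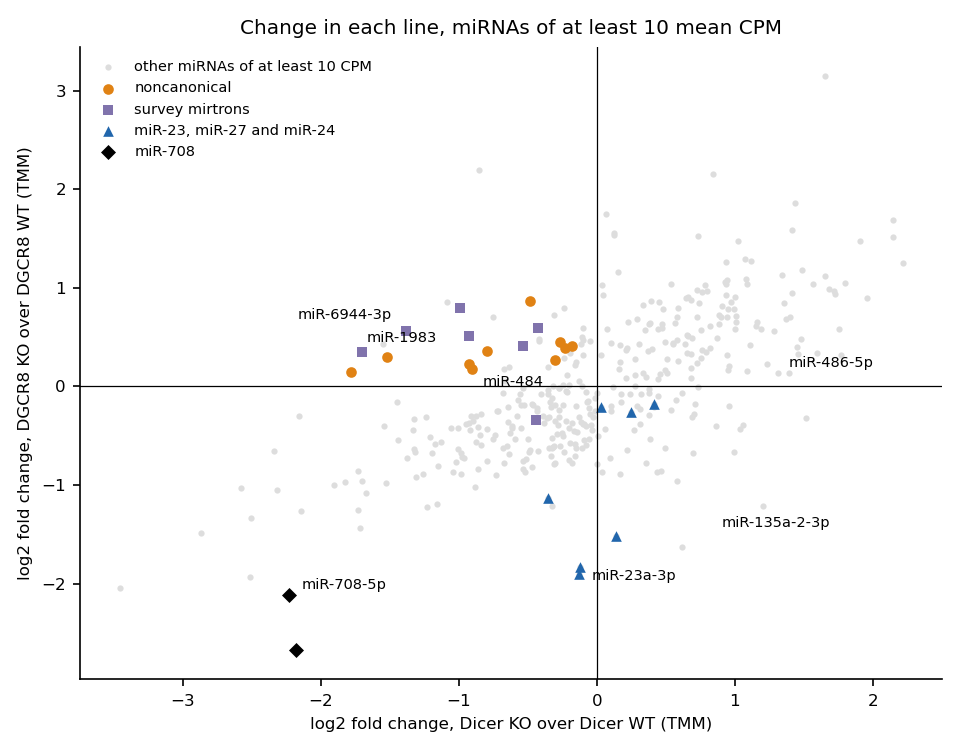
TMM log2 fold changes of miRNAs of at least 10 mean CPM, with Dicer KO over Dicer WT on the x axis and DGCR8 KO over DGCR8 WT on the y axis. Noncanonical miRNAs (circles) and most of the mirtron-numbered ones (squares) lie left of 0 and above 0, miR-23, miR-27 and miR-24 (triangles) near 0 or below on the y axis with little change on the x axis, and miR-708 (diamonds) below −2 on both axes.

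The arms of a hairpin were compared over 153 pairs of a 5p and a 3p arm in which both were tested; an arm made at several loci can belong to more than one pair. Both rose in 4 and both fell in 12, in 43 a single arm was called, and in 0 were the arms called in opposite directions; for 94 no arm was called. In 41 of the 43 the arm that was not called lay on the same side of 0, and the median gap between arms was 0.30 (log2).

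miR-455, a cartilage-associated miRNA in an intron of the collagen gene Col27a1, had the widest gap of the 153 arm pairs, 3.46 on the log2 scale. miR-455-3p was at 82.8 and 72.6 CPM in DGCR8 KO, against 7.55 and 9.92 CPM in DGCR8 WT (3.15 ± 0.82, adjusted p = 0.0314), an 8.89-fold higher level. miR-455-5p was at 26.9 and 25.3 CPM in DGCR8 KO, against 27.8 and 37.0 CPM in DGCR8 WT, and was not called (−0.31 ± 0.26, adjusted p = 0.405; positive on library totals). The 3p arm was thus far higher in both knock-outs while the 5p arm was not. In the Dicer line, miR-455-3p was at 393 and 431 CPM in Dicer KO, against 234 and 28.3 CPM in Dicer WT, so that wild-type mice of one line differed widely. Reads with an added T were its most frequent form, 117 and 74 in DGCR8 KO, against 10 and 9 in DGCR8 WT, and those with no added base were 36 and 25 in DGCR8 KO, against 2 and 6 in DGCR8 WT. In a separate edgeR fit of reads with no added base the log2 fold change was 3.03 (adjusted p = 0.0610), so that the call was lost at a like size.

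Among the 478 tested miRNAs with a RefSeq mature sequence, 49 seeds were shared by at least 2, and 8 of these had at least 2 calls. In 6 of these all calls were lower, in 1, that of miR-344d-3p and miR-410-3p, they were higher, and in 1 they were mixed. The mixed seed was that of miR-193a-3p and miR-193b-3p, which lie on chromosomes 11 and 16. miR-193a-3p was at 11.2 and 19.9 CPM in DGCR8 KO, against 41.3 and 53.7 CPM in DGCR8 WT (−1.63 ± 0.47, adjusted p = 0.0404). miR-193b-3p was at 29.3 and 43.0 CPM in DGCR8 KO, against 20.7 and 10.8 CPM in DGCR8 WT (1.18 ± 0.35, adjusted p = 0.0444). The more abundant of the 2 in the wild types was thus the less abundant in the knock-outs. The call of miR-193a-3p was lost on library totals. That of miR-193b-3p was lost after scaling to the noncanonical list and with the replicate block.

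miRNAs of other cell types that dissected cortex can hold were followed beside these results. Over all tested miRNAs 8.8% were called higher and 284 of 557 lay above 0. Of 5 vessel miRNAs 1 rose, and all 5 lay above 0 (median 0.48); together they made up 0.583% and 0.574% of reads in DGCR8 KO, against 0.320% and 0.329% in DGCR8 WT. Smooth-muscle miR-145a-5p was at 90.1 and 93.6 CPM in DGCR8 KO, against 48.5 and 45.1 CPM in DGCR8 WT (0.97 ± 0.29, adjusted p = 0.0443), and miR-143-3p was not called (0.48 ± 0.28, adjusted p = 0.247). The call of miR-145a-5p was lost after scaling to the noncanonical list, in reads with no added base and with the replicate block. Of 6 myeloid and lymphoid miRNAs 2 rose (median 0.66), miR-150-5p, at 269.8 and 295 CPM in DGCR8 KO against 154 and 118 CPM in DGCR8 WT (1.05 ± 0.28, adjusted p = 0.0358), and miR-146a-5p (1.48 ± 0.41, adjusted p = 0.0389); neither was called after scaling to the noncanonical list. The defining myeloid miR-223-3p had 8 and 10 reads in DGCR8 KO, against 6 and 4 in DGCR8 WT. Of 5 red cell miRNAs 0 were called by edgeR, 1 had an unadjusted p below 0.05 and 1 was called in DESeq2 (median 0.14, negative after scaling to the noncanonical list). Among them miR-451a was at 226 and 173 CPM in DGCR8 KO, against 116 and 107 CPM in DGCR8 WT (0.84 ± 0.30, adjusted p = 0.0711), and miR-486-5p at 3274 and 2709 CPM in DGCR8 KO, against 2672 and 2762 CPM in DGCR8 WT.

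Of 9 mesenchyme and cartilage miRNAs miR-455-3p was the single rise (median 0.76), against 8.8% called higher over all tested miRNAs. Their share was 0.117% and 0.109% of reads in DGCR8 KO, against 0.0777% and 0.0794% in DGCR8 WT. The muscle list had 1 tested member, miR-133a-3p, at 37.0 and 29.0 CPM in DGCR8 KO, against 12.7 and 10.4 CPM in DGCR8 WT (1.51 ± 0.43, adjusted p = 0.0404; call lost after scaling to the noncanonical list and in reads with no added base), while the defining muscle miRNAs miR-1a-3p and miR-206-3p had 0 to 2 reads in each library. Of 16 choroid plexus and epithelial miRNAs 0 were called by edgeR or DESeq2 (median 0.55). miR-204-5p of choroid plexus was at 1920 and 775 CPM in DGCR8 KO, against 866 and 939.6 CPM in DGCR8 WT, so replicate 1 of the knock-out stood apart and the list took 0.369% of reads there, 0.187% in the other knock-out and 0.162% and 0.165% in DGCR8 WT. The Hox-embedded miR-10b-5p had 17 and 27 reads in DGCR8 KO, against 8 and 15 in DGCR8 WT, and miR-196a-5p had 0 reads in all 4 libraries. Higher values of these lists were also seen in the DGCR8 heterozygotes. The medians of DGCR8 HET over DGCR8 WT were 0.73 for vessel, 0.85 for myeloid and lymphoid and 0.37 for red cell miRNAs. They were 2.72 for mesenchyme and cartilage, 0.99 for choroid plexus and epithelial, 1.53 for Hox-embedded and 0.64 for muscle miRNAs. miR-143-3p was at 2682 and 5461 CPM in the HET libraries, and miR-145a-5p at 53.1 and 102 CPM. The part of these cell types in the 12qF1, miR-344 and other rises was not tested.

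Further lists gave few calls. Of 8 miRNAs from other imprinted loci, 1 fell and 0 rose (median −0.22, positive on library totals), against 11.8% called lower over all tested miRNAs. The fall was that of miR-298-5p of the Gnas locus, at 6249 and 5732 CPM in DGCR8 KO, against 8702 and 9275 CPM in DGCR8 WT (−0.59 ± 0.16, adjusted p = 0.0374). Its call was lost on library totals and in reads with no added base. On library totals 2 of the 8 were called higher and 0 lower. miR-335-5p of the Mest locus was not called (0.42 ± 0.19, adjusted p = 0.15). Another 7 lists with 45 tested members in all, among them miR-101, miR-103 and miR-107, miR-221 and miR-222, the repeat family and the pluripotency list, had 0 calls by edgeR, 7 at an unadjusted p below 0.05 and 2 in DESeq2. Of all calls 29 belonged to no list, 7 higher and 22 lower. Of the 12 largest rises, miR-193b-3p and miR-551b-3p were among these. miR-551b-3p, from an intron of Egfem1, was at 90.1 and 72.6 CPM in DGCR8 KO against 38.2 and 28.0 CPM in DGCR8 WT (1.30 ± 0.32, adjusted p = 0.0269).

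Non-templated or genome-matched bases at the 3′ end, which the table does not tell apart, were compared with and without holding the miRNA makeup of the libraries fixed. Reads with any added base made up 36.5% and 36.9% in DGCR8 KO, against 38.3% and 37.4% in DGCR8 WT. Over 235 miRNAs with at least 100 reads in each library, weighted alike in all libraries, the shares were 37.1% and 37.3% in DGCR8 KO, against 37.4% and 37.1% in DGCR8 WT. The groups were apart in the raw shares and overlapped in the weighted ones.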

How the data were processed

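The authors deposited one table of raw read counts, with 19414 entries for 10 libraries, each entry a mature miRNA name and a 3′ suffix of up to 3 added bases. Per the labels, 1000 ng of RNA went into each TruSeq small RNA library. The submitters' processing notes name Bowtie and GRCm38; for versions and multiply matching reads, the steps are not given in the sources used. No molecular identifiers are stated, so PCR duplicates could not be told apart from separate molecules.

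Counts were summed per mature name. edgeR 4.0.16 (R 4.3.3) kept 557 names by filterByExpr (minimum count 10, minimum total 15), scaled by TMM and fitted 1 mean per group with glmQLFit; p-values are two-sided and Benjamini-Hochberg adjusted. Names left out took 0.0297% to 0.0476% of reads. DESeq2 1.42.0, other scalings, filters and subsets were alternatives. miRNAs were named by rule: the 12 largest called rises and falls of at least 10 mean CPM without overlap, the 10 most abundant in DGCR8 WT, up to 3 per list and the opposite arms, of which not all are given; exceptions are stated. The members and lists were chosen with earlier results of these data known. Replicate numbers name samples only.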

Additional observations from a re-analysis of the deposited data

Results flagged for a closer look

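The change in the DGCR8 line, DGCR8 KO over DGCR8 WT, differed from that in the Dicer line, Dicer KO over Dicer WT, by edgeR's test of the difference itself for 9 of the named miRNAs. The difference in log2 fold change was 2.95 for miR-6958-3p, with 4 and 2 reads in Dicer KO, 1.94 for miR-6944-3p, 1.82 for miR-1983 and 1.07 for miR-484. All 4 were lower in Dicer KO but not in DGCR8 KO. The difference was −2.42 for miR-135a-2-3p, −1.77 for miR-23a-3p, −1.70 for miR-24-2-5p, −1.66 for miR-27a-3p and −1.18 for miR-486-5p. The red-cell miR-486-5p was at 8464 and 9402 CPM in Dicer KO, against 4010 and 3171 CPM in Dicer WT. The lines have separate wild types, and Dicer KO libraries held the fewest reads, 983318 and 800623; the part of depth in these differences was not tested.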

How the results depend on the processing

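Of 55 called miRNAs named in the text, all kept their direction under the 12 alternatives in which they could be tested, except miR-30a-5p and miR-30e-5p, which lay at 0.0733 and 0.0670 in reads with no added base. Against 49 higher and 66 lower calls, library totals gave 105 and 14, scaling to the noncanonical list 14 and 123, no filter on low counts 76 higher, the 6 DGCR8 libraries alone 76 higher, the 4 KO and WT libraries alone 97 higher of 193 in all, and reads with no added base 40 lower. Leaving out 1 library gave 5 to 10 calls, 0 to 2 higher and 5 to 9 lower, from fewer samples. The replicate number says nothing of litter or batch; with it as a replicate block 109 miRNAs were called, 104 of them among the 115, and the correlation of same-numbered deviations was 0.230. Of the 12 differences between the lines, library totals gave 21, DESeq2 38, and leaving out 1 library 0 to 43.

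Values of miRNAs that were not called changed sign as follows. On library totals miR-125b-5p lay at 0.410, miR-135a-5p and the median of its list at 0.223, miR-16-5p at 0.188, miR-181a-5p at 0.259, miR-23b-3p at 0.240, miR-27b-3p at 0.149 and miR-455-5p at 0.111. There the list medians were 0.103 for miR-99, miR-100 and miR-125, 0.0271 for miR-15 and miR-16, 0.0218 for miR-181, 0.101 for miR-130 and miR-301 and 0.194 for other imprinted loci, which lay at 0.273 in reads with no added base. miR-125b-5p lay at 0.0404 with no filter, 0.0755 in the 6 and 0.0669 in the 4 libraries alone, 0.0648 in reads with no added base, 0.000238 with the replicate block and 0.104 in DESeq2. Scaled to the noncanonical list, miR-484, itself a large part of that list, lay at −0.0678, and miR-486-5p and the red cell median at −0.0928. In reads with no added base miR-486-5p lay at −0.00135. Without 1 library in turn, the ranges were −0.0118 to 0.122 for miR-125b-5p, −0.409 to 0.101 for miR-135a-5p and its list, −0.414 to 0.0681 for miR-16-5p, −0.160 to 1.16 for miR-204-5p, −0.265 to 0.0643 for other imprinted loci and −0.0503 to 0.398 for the red cell median. The cause of these shifts was not tested.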
